A study of Homo sapiens with 24 samples.

Results

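The genes described here are the zinc finger genes of human chromosome 19, taken as every protein-coding gene on that chromosome whose symbol is ZNF followed by digits. The deposited table had 230 of the 240 genes that the annotation holds under this rule, out of 14585 rows in all. RNA was sequenced from A549 cells, a human lung adenocarcinoma line, and Huh7 cells, a human hepatocellular carcinoma line. Each line was left as control or given an extract of Pulsatilla chinensis, Bupleurum chinense or Polyporus umbellatus, with 3 replicates in each of the 8 groups and 24 libraries in all. The labels call the untreated groups only control, and the sources used here give neither the extract dose or duration of the sequenced cells nor whether replicates were separate cultures, so p-values measure only the spread between these samples. The comparisons ask how each extract changed the level of these genes in each line, and whether the lines differed. The 3 extracts share the control libraries of their line, so their results against control are not independent of each other.

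Most zinc finger proteins encoded on chromosome 19 carry a row of C2H2 fingers that bind DNA and a KRAB domain that recruits the corepressor TRIM28. TRIM28 in turn brings the histone H3 lysine 9 methyltransferase SETDB1, HP1 proteins and the NuRD complex, and the best known targets are transposable elements. The genes arose by repeated duplication, lie in clusters of close relatives, and share long stretches of near-identical sequence.

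The members ran from 2.82 to 58.48 Mb of chromosome 19 (GRCh38), with 127 on the forward and 103 on the reverse strand. A cluster was taken to end where the next gene started more than 0.5 Mb away, which gave 10 clusters with at least 4 measured members. These 10 clusters held 220 members, and the other 10 members stood alone or in pairs. The largest clusters were at 51.6 to 53.6 Mb and 57.2 to 58.5 Mb, with 39 members each, followed by 19.7 to 24.1 Mb with 32 members. The median GC content of the members' canonical transcripts was 42.4%, against 48.1% over all genes, and 196 of the 230 lay below the median of all genes. The cluster at 55.5 to 56.7 Mb was the exception, with a median of 63.3% over its 16 members. For 11 members (ZNF177, ZNF763, ZNF844, ZNF20, ZNF625, ZNF443, ZNF709, ZNF564, ZNF490, ZNF724 and ZNF587) fewer than 50% of the 31-base words of all their transcripts were found in no other gene compared. Their counts are uncertain because kallisto could assign shared reads to either copy. The median share of unique words over the members was 88.8%. Exons of 79 members overlapped a gene on the opposite strand, and since a strand setting is not given in the sources used here, reads of the pair may not be separated.

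The 300 bases around the start site (250 before and 50 after, RefSeq, GRCh38.p14) were found for 204 members and for 11758 of all measured genes. 5 of them follow, ZNF134, ZNF226 and ZNF304 because they rose with P. chinensis in both lines, ZNF317 because it rose with every extract in Huh7, and ZNF91 because it had the largest fitted difference between the lines. They lie at chr19:57613992-57614291 (forward strand), chr19:44164850-44165149 (forward), chr19:57351021-57351320 (forward), chr19:9140147-9140446 (forward) and chr19:23395422-23395721 (reverse). Capitals mark matches, on either strand, to any of 4 motifs: the CCAAT box, the GC box in the form GGGCGG, the core of ETS sites in the form CCGGAAG, and the TATA box in the form TATAAA.
ZNF134: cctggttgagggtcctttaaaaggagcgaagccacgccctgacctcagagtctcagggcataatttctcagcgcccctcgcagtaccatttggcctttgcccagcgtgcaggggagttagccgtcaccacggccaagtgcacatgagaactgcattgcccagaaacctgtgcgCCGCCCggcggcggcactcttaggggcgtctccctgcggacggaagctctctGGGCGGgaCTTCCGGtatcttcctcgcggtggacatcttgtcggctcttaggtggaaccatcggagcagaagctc
ZNF226: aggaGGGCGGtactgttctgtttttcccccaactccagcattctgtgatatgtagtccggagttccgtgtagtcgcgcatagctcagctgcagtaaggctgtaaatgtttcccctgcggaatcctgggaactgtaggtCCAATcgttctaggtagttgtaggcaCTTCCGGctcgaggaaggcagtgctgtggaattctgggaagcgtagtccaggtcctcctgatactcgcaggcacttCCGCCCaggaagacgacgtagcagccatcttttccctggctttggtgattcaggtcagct
ZNF304: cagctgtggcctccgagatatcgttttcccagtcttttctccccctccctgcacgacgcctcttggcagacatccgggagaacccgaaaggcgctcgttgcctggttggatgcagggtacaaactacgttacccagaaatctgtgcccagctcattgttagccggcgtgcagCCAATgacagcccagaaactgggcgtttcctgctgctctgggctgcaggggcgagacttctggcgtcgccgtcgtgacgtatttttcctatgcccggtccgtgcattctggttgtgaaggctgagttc
ZNF317: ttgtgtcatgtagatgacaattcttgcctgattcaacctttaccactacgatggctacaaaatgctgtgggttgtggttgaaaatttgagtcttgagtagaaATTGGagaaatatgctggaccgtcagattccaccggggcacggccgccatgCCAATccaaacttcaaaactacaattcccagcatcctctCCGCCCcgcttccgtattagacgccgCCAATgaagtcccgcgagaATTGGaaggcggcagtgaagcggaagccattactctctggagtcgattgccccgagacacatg
ZNF91: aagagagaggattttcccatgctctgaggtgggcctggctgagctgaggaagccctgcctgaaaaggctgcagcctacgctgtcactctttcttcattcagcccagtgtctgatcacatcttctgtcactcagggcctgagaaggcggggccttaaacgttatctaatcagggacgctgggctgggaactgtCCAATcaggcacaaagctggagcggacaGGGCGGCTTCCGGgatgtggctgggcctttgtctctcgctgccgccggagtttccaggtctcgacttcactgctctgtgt

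CCGGAAG was present in 44.6% of the members' promoters and in 17.8% of the promoters of all measured genes. CCAAT was present in 52.9% against 36.6%, GGGCGG in 69.1% against 67.1%, and TATAAA in 1.96% against 6.56%. The median GC content of the members' promoters was 60%, against 64.7% over all genes. Among the 73 members with a promoter that rose with P. chinensis in Huh7, CCGGAAG was present in 28 (38.4%), and among the other 131 in 63 (48.1%). These matches describe the letters in the window and are not evidence of binding.

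Total counts ran from 6803648 to 17175519 per library in A549 and from 7182412 to 24345364 in Huh7, and the members took between 0.289% and 0.563% of them. All 8 hepatocyte markers, ALB and AFP among them, were higher in every Huh7 library than in any A549 library, and 7 of 8 A549 markers were higher in every A549 library. The members were less abundant than most genes, with a median mean count of 63.4 in A549 and 170 in Huh7. Over all protein-coding genes measured it was 236 and 355, in both cases before the filter on low counts. Because of this 18 members with a mean of 5 counts or fewer were not tested in A549, which left 212, while all 230 were tested in Huh7. The 3 Huh7 libraries with P. umbellatus stood apart: relative to the mean of the control libraries of their line, log2 levels over all genes fell by 0.31, 0.67 and 0.21 for each 10 points of GC content in replicates 1, 2 and 3, against slopes from -0.05 to 0.01 in the other Huh7 libraries. Counts of calls with P. umbellatus in Huh7 and the log2 changes printed there are therefore given both as counted and after a correction of each library for the GC content and length of the transcripts. Rises and falls with this extract in Huh7 that are stated without a log2 change are as counted.

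**Figure D1:**
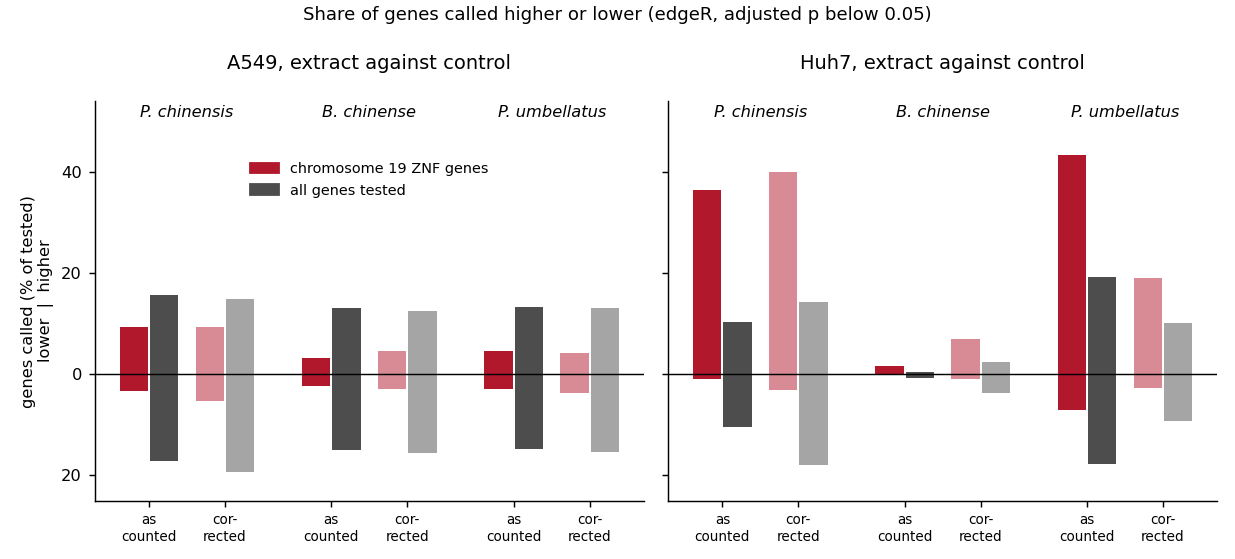
Share of genes called higher (above 0) and lower (below 0) than control, in percent of the genes tested, for the chromosome 19 ZNF genes (red) and all genes (grey), as counted (dark) and after the GC and length correction (pale). In Huh7 the members called higher with P. chinensis were 36.5% as counted and 40% corrected, and with P. umbellatus 43.5% and 19.1%.

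In Huh7 cells P. chinensis raised 84 of the 230 members and lowered 2 (edgeR quasi-likelihood test, Benjamini-Hochberg adjusted p below 0.05). Over all 13875 genes 10.5% rose and 10.5% fell. These are changes in the share of RNA in a bulk sample, in which fewer cells expressing a gene and less RNA per cell cannot be told apart. The median log2 change of the members was 0.34, against 0.01 over all genes, and 187 of the 230 changes were above 0. ZNF genes of other chromosomes had 25 higher and 18 lower of 214 (median 0.04), and the other genes of chromosome 19 had 50 higher and 49 lower of 791 (median 0.00). In 126 members all 3 treated libraries were above all 3 controls, which was true of 26.7% of all genes. The members' share of all counts was 0.436% to 0.442% in the controls and 0.523% to 0.532% with P. chinensis, without overlap. After the GC and length correction 92 members rose and 7 fell, against 14.3% and 18% of all genes, and 80 of the 92 were among the 84. The count of 84 was 55 and 51 without replicates 1 and 2 of P. chinensis, 54, 53 and 54 without control replicates 1, 2 and 3, and 101 without replicate 2 of P. umbellatus, whose libraries share the estimate of spread. The 2 members lower became 1 without any 1 of 4 P. chinensis or control libraries, and 9 and 5 without replicates 2 and 3 of P. umbellatus. Without the 11 members that share most of their sequence, 81 of 219 rose and 2 fell.

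Among the largest rises were ZNF844, ZNF114 and ZNF613. ZNF844 stood at 10.2, 9.25 and 8.92 CPM (counts scaled to the library size) in the Huh7 controls and at 22.8, 20.4 and 24.7 with P. chinensis, where every treated library was above 20 CPM and every control below 11. Its log2 change was 1.25 ± 0.15 (SE, adjusted p = 9.82e-05), but only 45.9% of its words are unique. ZNF114, at 1.86, 1.60 and 2.75 CPM in the controls and 5.54, 4.67 and 5.11 with P. chinensis, rose by 1.24 ± 0.28 (adjusted p = 0.00755). ZNF613 went from 2.16, 2.96 and 1.71 to 5.70, 5.30 and 5.18 CPM, a log2 change of 1.21 ± 0.28 (adjusted p = 0.00979). In none of these genes did treated and control libraries overlap, which the rule for naming the largest changes required.

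Several members with a described function rose as well. ZNF350, also called ZBRK1, is a KRAB repressor that binds BRCA1. It stood at 2.66, 2.83 and 2.33 CPM in the Huh7 controls and at 5.74, 5.35 and 5.41 with P. chinensis, a log2 change of 1.04 ± 0.19 (adjusted p = 0.00188). ZNF224, a KRAB repressor of the aldolase A gene, went from 4.26, 6.16 and 6.55 to 10.1, 12.9 and 9.48 CPM (0.92 ± 0.23, adjusted p = 0.0134). ZNF274 recruits SETDB1 to the ends of other zinc finger genes, and its log2 change was 0.71 ± 0.11 in Huh7 (adjusted p = 0.000923) and 0.37 ± 0.12 in A549 (adjusted p = 0.0314). ZNF274 was named for its role after its values were seen. ZNF91 and ZNF93, which repress SVA and L1 retrotransposons, changed by 0.30 ± 0.09 (adjusted p = 0.0393) and 0.41 ± 0.14 (adjusted p = 0.0628), so that the second missed the threshold as counted and passed it corrected (0.35, adjusted p = 0.0195). The call of ZNF91 was lost without any 1 of 7 of the 12 Huh7 libraries (highest adjusted p = 0.134), that of ZNF224 without any 1 of 2, and that of ZNF274 in A549 without any 1 of 4 of the 12 A549 libraries (highest adjusted p = 0.128).

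ZNF792 and ZNF726 were the members that fell with P. chinensis in Huh7. ZNF792 stood at 36.8, 37.3 and 38.3 CPM in the controls and at 24.8, 22.4 and 21.0 with the extract, a log2 change of -0.72 ± 0.11 (adjusted p = 0.000572). ZNF726 stood at 23.3, 24.6 and 19.6 and at 16.7, 17.4 and 17.4 CPM, a change of -0.38 ± 0.10 (adjusted p = 0.0201). Treated libraries lay below the controls in both genes, which the rule for naming the largest changes required. ZNF726 was no longer called without any 1 of 4 libraries (highest adjusted p = 0.0750).

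Rises with P. chinensis in Huh7 were found in 9 of the 10 clusters. The cluster at 8.5 to 9.8 Mb had 8 of 12 members higher and a median log2 change of 0.47, and that at 43.5 to 44.5 Mb had 14 of 23 higher and a median of 0.54. At 36.2 to 37.8 Mb, 10 of 24 rose (median 0.49), at 11.5 to 12.6 Mb, 11 of 25 (median 0.43), at 51.6 to 53.6 Mb, 15 of 39 (median 0.36), and at 57.2 to 58.5 Mb, 12 of 39 (median 0.23). The cluster at 19.7 to 24.1 Mb was lower in this order, with 6 of 32 higher and 1 lower and a median of 0.18. The GC-rich cluster at 55.5 to 56.7 Mb had 3 of 16 higher and a median of -0.14. Within each cluster the changes spread widely, with an SD of 0.36 in the cluster at 43.5 to 44.5 Mb and 0.45 at 57.2 to 58.5 Mb, which is as large as the differences between most cluster medians. Of 212 pairs of neighbours on the chromosome, both members rose in 40. With 36.5% of the members called higher, some pairs would both rise whatever their place, and how many was not counted. The 40 pairs are therefore not read as an effect of position. All protein-coding genes measured were also split into 5 bins of equal size by GC content, before the filter on low counts. Of the 19 members in the bin with the highest GC content (above 58.3%) none rose or fell, and their median was -0.22, against -0.06 for the other genes of that bin.

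**Figure D2:**
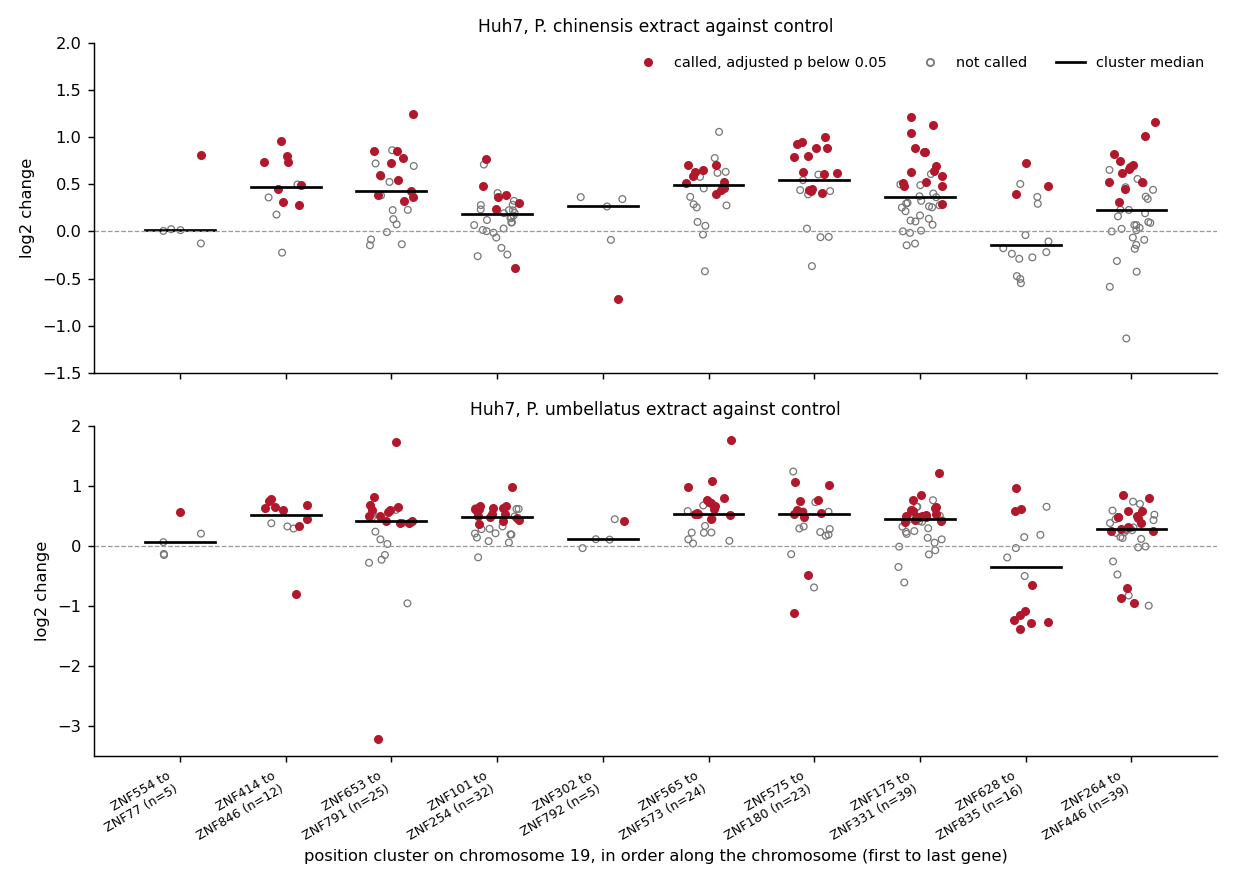
Log2 change against control in Huh7 for each member (points) in the 10 clusters with at least 4 measured members, in order along chromosome 19, with P. chinensis (top) and P. umbellatus (bottom). Red points were called, and black bars are cluster medians: with P. chinensis they run from -0.14 to 0.54, and the lowest with P. umbellatus is -0.34, in the cluster from ZNF628 to ZNF835.

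B. chinense in Huh7 raised 4 members and lowered none by the same test, against 0.519% of all genes higher and 0.757% lower. At an unadjusted p below 0.05, 59 members were higher and 1 lower, against 838 and 871 of all 13875 genes. DESeq2 called 16 members higher, and its share over all genes is not given here. The median log2 change was 0.17, against 0.00 over all genes, and 189 of the 230 changes were above 0. ZNF genes of other chromosomes leaned the same way, with 143 of 214 changes above 0 and a median of 0.08. At an unadjusted p below 0.05 by the same test, 19 of them were higher and 3 lower. Among the other genes of chromosome 19, 322 of 791 changes were above 0 (median -0.04). In 79 members all treated libraries were above all controls, against 13.7% of all genes. The members' share of counts was 0.483% to 0.506%, above the controls. After the GC and length correction 16 members were higher and 2 lower, against 2.41% and 3.63% of all genes. The count of 4 depended on single libraries: it was 2, 17 and 7 without replicates 1, 2 and 3 of P. umbellatus, 27 in a fit without all 3 of them (chosen after the values were seen), and 0 or 1 without any 1 of the other 9 libraries. The shares over all genes in these fits are not given here.

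The members that rose with B. chinense also rose with the other extracts in Huh7. How many of all genes did so was not counted, and the 3 comparisons share their controls. ZNF317, a KRAB zinc finger gene at 8.5 to 9.8 Mb, stood at 38.0, 41.9 and 36.6 CPM in the controls. It stood at 80.1, 69.5 and 76.2 with P. chinensis, at 51.4, 59.8 and 55.8 with B. chinense, and at 68.9, 65.0 and 62.6 with P. umbellatus. Every treated library was above every control, which the rule for naming the largest changes required with B. chinense. The B. chinense libraries were the lowest of the treated ones. The log2 changes were 0.95 ± 0.09 (adjusted p = 1.37e-05), 0.52 ± 0.09 (adjusted p = 0.0124) and 0.75 ± 0.09 (adjusted p = 0.000381), in that order, and the last was 0.75 after the GC correction as well (adjusted p = 7.64e-05). ZNF615 went from 3.71, 2.77 and 4.09 CPM to 5.94, 7.09 and 6.37, to 6.67, 6.75 and 6.62, and to 8.55, 10.1 and 6.67 with the 3 extracts in the same order, again without overlap. Its changes were 0.84 ± 0.19, 0.89 ± 0.19 and 1.21 ± 0.19 (adjusted p = 0.00685, 0.0451 and 0.00132), and the last was 0.89 corrected (adjusted p = 0.00341). For ZNF615 the same rule required the lack of overlap with B. chinense and P. umbellatus. The other 2 were ZNF844, which shares most of its sequence, at 0.69 ± 0.15 with B. chinense (adjusted p = 0.0457), and ZNF14, described after its values were seen, at 0.50 ± 0.11 (adjusted p = 0.0439). With B. chinense the call of ZNF317 was lost without any 1 of 4 libraries (highest adjusted p = 0.0902), and those of ZNF844, ZNF615 and ZNF14 without any 1 of 10, 10 and 9.

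P. umbellatus in Huh7 raised 100 members and lowered 16 as counted, against 19.3% of all genes higher and 17.8% lower, with a median log2 change of 0.42 (0.03 over all genes). The changes followed GC content: Spearman's rho was -0.67 over all 13875 genes and -0.48 over the 230 members, which share the same libraries. For comparison it was -0.07 and -0.20 with P. chinensis. In the bin with the lowest GC content, 49 of 80 members rose, while 44.8% of the other genes there rose too. In that with the highest, 12 of 19 members fell, and so did 52.5% of the other genes. After the correction 44 members rose and 6 fell, against 10.2% and 9.22% of all genes. Of these 44, 39 were among the 100, and the median was 0.21 (0.02 over all genes). The corrected rises stood at 21 of 80 in the lowest bin, where 8.47% of the other genes rose, and at 14 of 96 and 4 of 29 in the next bins, where 9.52% and 9.86% rose. ZNF genes of other chromosomes had 65 higher and 22 lower of 214 as counted, and 24 and 9 corrected.

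**Figure D3:**
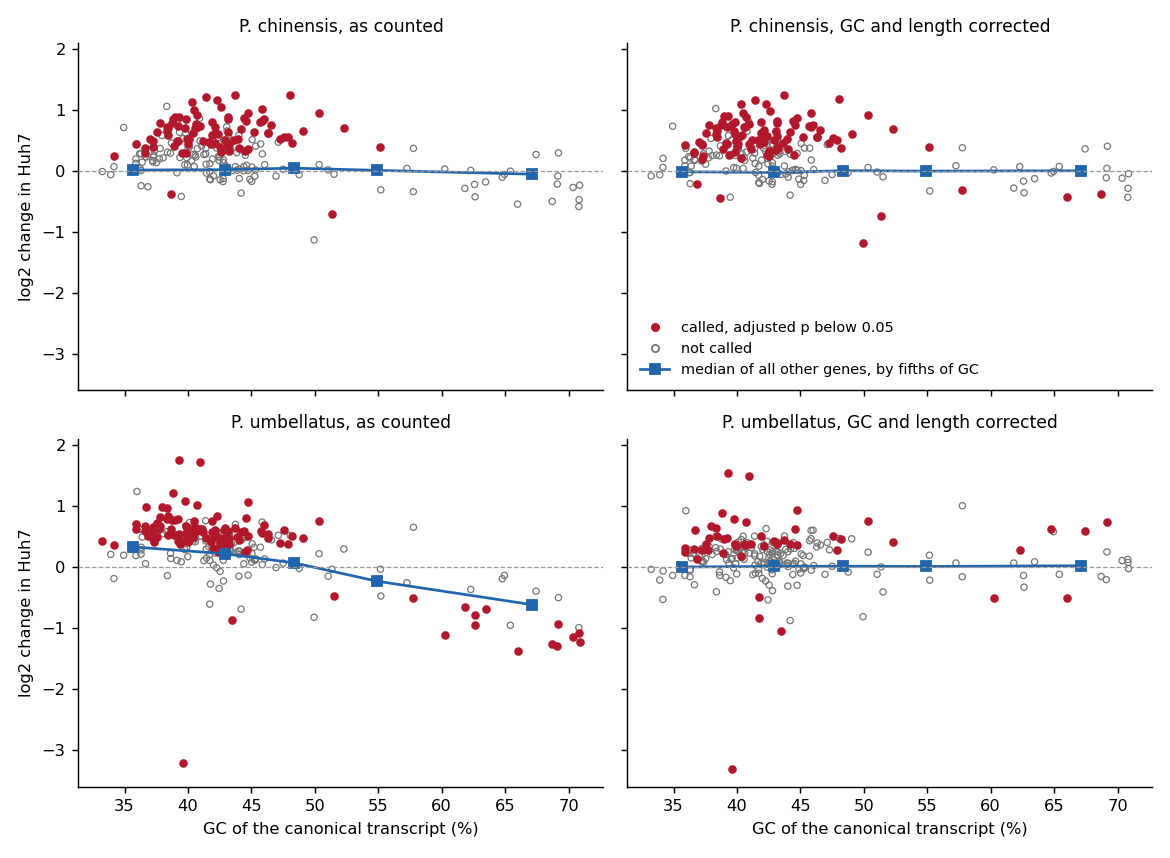
Log2 change of each member in Huh7 against the GC content of its canonical transcript, with P. chinensis (top) and P. umbellatus (bottom), as counted (left) and corrected (right). Blue squares are medians of all other genes tested, in the 5 bins of GC content: as counted with P. umbellatus they run from 0.33 in the lowest bin to -0.61 in the highest, and the correction brings them to between 0.01 and 0.03.

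ZNF461, ZNF573 and ZNF224 kept a rise with P. umbellatus after the correction. ZNF461 stood at 4.06, 5.98 and 3.59 CPM in the Huh7 controls and at 11.2, 10.4 and 7.65 with P. umbellatus. Its log2 change was 1.08 ± 0.23 as counted (adjusted p = 0.00464) and 0.80 corrected (adjusted p = 0.0230). ZNF573 was at 1.41, 0.986 and 0.917 and at 3.30, 3.17 and 5.59 CPM, changes of 1.76 ± 0.41 (adjusted p = 0.00710) and 1.54 (adjusted p = 0.0215). Neither gene overlapped between treated and control libraries, which for ZNF461 the rule for naming the largest changes required. ZNF224 was at 11.1, 14.3 and 9.81 CPM with P. umbellatus, changes of 1.03 ± 0.24 (adjusted p = 0.00685) and 0.75 (adjusted p = 0.0279). The retrotransposon repressors also passed in both fits: ZNF91, at 153, 146 and 152 CPM in the controls and 250, 264 and 206 with P. umbellatus, by 0.67 ± 0.09 as counted (adjusted p = 0.000775) and 0.30 corrected (adjusted p = 0.0128), and ZNF93 by 0.63 ± 0.15 (adjusted p = 0.00664) and 0.38 (adjusted p = 0.0243).

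Of the 16 falls with P. umbellatus, 12 were in the bin with the highest GC content and 1 in each of the other 4 bins, and 7 belonged to the cluster at 55.5 to 56.7 Mb. ZNF444, a zinc finger gene with a SCAN domain in place of KRAB, stood at 163, 177 and 173 CPM in the Huh7 controls and at 70.0, 41.2 and 100 with P. umbellatus. Its lowest value was in replicate 2, the library with the steepest GC slope. Its change was -1.26 ± 0.21 as counted (adjusted p = 0.00169) and -0.15 corrected (adjusted p = 0.0766). ZNF524 went from 3.56, 4.07 and 4.17 to 1.59, 0.720 and 2.16 CPM, changes of -1.28 ± 0.29 (adjusted p = 0.00597) and -0.20 (adjusted p = 0.582). ZNF579 is a member of this cluster that passed in both fits: it stood at 25.7, 31.8 and 31.3 CPM and at 11.7, 6.05 and 15.6, changes of -1.38 ± 0.23 (adjusted p = 0.00164) and -0.51 (adjusted p = 0.00534). ZNF428 at 43.5 to 44.5 Mb did the same, at 15.3, 16 and 12.3 and at 6.72, 5.19 and 7.85 CPM (-1.11 ± 0.16, adjusted p = 0.000906, and -0.51, adjusted p = 0.0163). ZNF709 had summed counts of 91 in the controls and 1 with P. umbellatus, a ratio of 0.0252 (exact 95% interval 0.00063 to 0.144, counting error only), and only 21.2% of its words are unique. This ratio is as counted. As counted the cluster at 55.5 to 56.7 Mb had 3 members higher and 7 lower (median -0.34), and corrected 3 higher and 1 lower (median 0.09). The part of the GC trend in each of these changes was not tested beyond this correction.

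P. chinensis was also set against the mean of the other extracts in Huh7. Of the members 12 were higher and 4 lower, against 9.69% and 12.1% of all genes. ZNF114 was higher by 0.83 ± 0.24 (adjusted p = 0.0284) and ZNF350 by 0.64 ± 0.16 (adjusted p = 0.0148), while ZNF792 was lower by -0.59 ± 0.10 (adjusted p = 0.00150) and ZNF714 by -0.53 ± 0.09 (adjusted p = 0.00163). With the GC correction these differences were 0.79, 0.66, -0.63 and -0.30 (adjusted p = 0.0267, 0.0138, 0.000156 and 0.000132), so that of ZNF714 became smaller by more than 1.5 times. Corrected, 31 members were higher and 6 lower, against 10% and 15.2% of all genes. Against B. chinense alone, a comparison chosen after the values were seen, 10 members were called, and 25 with the correction. The directions and the shares over all genes are not given here for these 2 fits. The 16 calls were 7, 9 and 8 without replicates 1, 2 and 3 of P. chinensis, and 27 and 33 without replicates 2 and 3 of P. umbellatus. Those of ZNF350 and ZNF114 were lost without any 1 of 3 and 5 libraries (highest adjusted p = 0.0692 and 0.109). The comparison with the mean of the other extracts in A549 called 0 members by edgeR, against 3.57% of all genes. DESeq2 called 3, and its share over all genes is not given here. At an unadjusted p below 0.05, 15 of 212 members were higher and 6 lower, against 1070 and 1287 of all 13633 genes.

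In A549 cells members were called less often than all genes with each extract. P. chinensis raised 20 of the 212 tested members (9.43%) and lowered 7 (3.30%), against 15.8% and 17.1% of all 13633 genes, with a median log2 change of 0.12 (0.01 over all genes). B. chinense raised 7 (3.30%) and lowered 5 (2.36%), against 13.1% and 15%, with a median of 0.12 (0.00 over all genes). P. umbellatus raised 10 (4.72%) and lowered 6 (2.83%), against 13.4% and 14.8%, with a median of 0.01 (-0.01 over all genes). The members' counts were low in A549, and among genes with a mean above 50 counts P. chinensis raised 21 and lowered 5 of 133 members (15.8% and 3.76%), against 20% and 19.5% of all genes. Treated libraries were above all controls in 48 members with P. chinensis, against 22.6% of all genes, and below all controls in 14, against 22.6%. The members' share of counts was 0.289% to 0.290% in the A549 controls, 0.312% to 0.319% with P. chinensis, 0.305% to 0.307% with B. chinense and 0.289% to 0.295% with P. umbellatus. The 20 rises with P. chinensis were also called after the GC correction. Without replicates 2 and 3 of P. chinensis and without control replicate 3 the count was 10, 12 and 11. The 10 rises with P. umbellatus were 5 or 6 without any 1 of the P. umbellatus or control libraries.

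In A549 ZNF442, ZNF304, ZNF134, ZNF264 and ZNF260 rose with all 3 extracts, and ZNF714, ZNF473, ZNF146 and ZNF507 fell with all 3. How many of all genes did so was not counted, and the 3 comparisons share their controls. The overlap is therefore not read as particular to the members. ZNF507 was named after its values were seen. ZNF442 stood at 5.32, 4.23 and 2.70 CPM in the A549 controls, at 9.02, 9.69 and 10.4 with P. chinensis, at 7.28, 9.72 and 6.29 with B. chinense and at 6.39, 8.29 and 5.58 with P. umbellatus. All treated libraries were above all controls, which the rule for naming the largest changes required. Those with P. umbellatus came closest to the controls. Its log2 changes were 1.22 ± 0.25, 0.91 ± 0.25 and 0.72 ± 0.25 (adjusted p = 0.00157, 0.0139 and 0.0448). ZNF304, a KRAB protein described to take part in silencing of the INK4-ARF locus, went from 4.18, 2.95 and 4.05 CPM to 5.38, 9.39 and 8.33 with P. chinensis, to 6.29, 7.56 and 5.85 with B. chinense and to 5.98, 5.80 and 7.94 with P. umbellatus. The changes were 1.02 ± 0.24, 0.79 ± 0.25 and 0.78 ± 0.24 (adjusted p = 0.00487, 0.0265 and 0.0264). ZNF264, from 37.0, 34.3 and 33.3 CPM to 49.5, 50.1 and 51.6 with P. chinensis, changed by 0.53 ± 0.08 (adjusted p = 0.000113). The rises of ZNF442, ZNF134, ZNF304 and ZNF260 with P. umbellatus were lost without any 1 of 8, 6, 2 and 1 of the 12 A549 libraries (highest adjusted p = 0.175, 0.128, 0.105 and 0.0582), and those of ZNF442 and ZNF304 with B. chinense without any 1 of 2.

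ZNF714, a gene of the cluster at 19.7 to 24.1 Mb, stood at 39.3, 33.6 and 31.5 CPM in the A549 controls and at 23.5, 23.5 and 17.7 with P. chinensis. Its log2 change was -0.69 ± 0.14 (adjusted p = 0.00161), and it was -0.57 ± 0.14 and -0.62 ± 0.14 with B. chinense and P. umbellatus (adjusted p = 0.00758 and 0.00376). ZNF473 encodes a U7 snRNP protein needed for the processing of replication-dependent histone mRNA. It stood at 32.4, 33.2 and 36.8 CPM in the A549 controls, at 27.5, 25.5 and 25.4 with P. chinensis, at 23.1, 21.7 and 19.7 with B. chinense and at 22.6, 23.3 and 22.4 with P. umbellatus. The changes were -0.39 ± 0.09, -0.66 ± 0.09 and -0.58 ± 0.09 (adjusted p = 0.00504, 0.000117 and 0.000278). Controls and treated libraries did not overlap, which the rule for naming the largest changes required. ZNF566, at 36.4, 31.9 and 34.2 CPM in the controls and 25.6, 27.7 and 21.7 with P. chinensis, changed by -0.45 ± 0.11 (adjusted p = 0.00748).

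**Figure D4:**
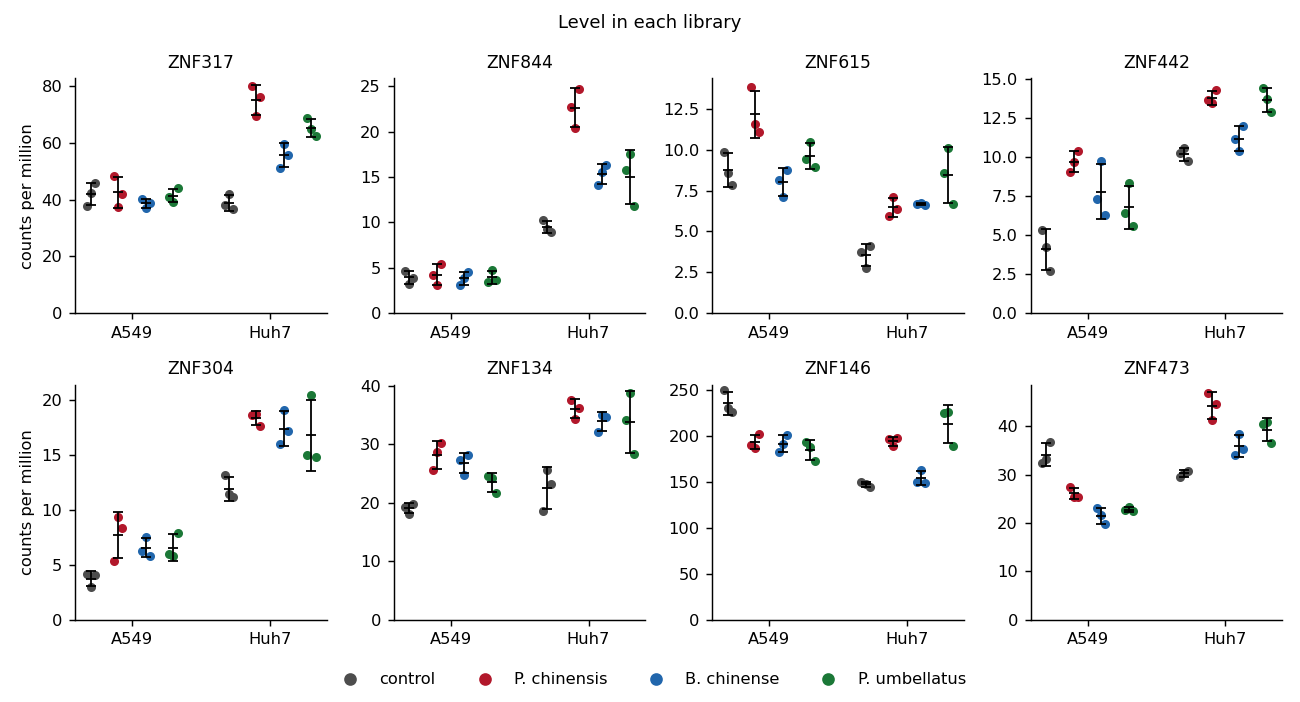
Normalised CPM of 8 members in each library (points) with the mean and SD of each group of 3 (bars), for A549 (left of each panel) and Huh7 (right). ZNF317, ZNF844 and ZNF615 rose with every extract in Huh7, ZNF442, ZNF304 and ZNF134 rose with every extract in A549, and ZNF146 and ZNF473 fell with every extract in A549 but rose with P. chinensis and P. umbellatus in Huh7. The values and calls are as counted, without the GC and length correction.

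With P. chinensis 15 members rose in both lines, among them ZNF442, ZNF304, ZNF134, ZNF226, ZNF350 and ZNF615, and none fell in both. How many of all genes rose in both lines was not counted. Only 2 members were called lower in Huh7 with this extract, so few could have fallen in both. ZNF134 went from 19.4, 18.1 and 19.9 to 25.6, 28.7 and 30.3 CPM in A549 and from 18.7, 25.7 and 23.2 to 37.6, 34.4 and 36.3 in Huh7, changes of 0.56 ± 0.10 (adjusted p = 0.000729) and 0.68 ± 0.13 (adjusted p = 0.00302). ZNF226 went from 18.4, 19.7 and 20.1 to 24.5, 24.8 and 26.5 CPM in A549 and from 16.9, 16 and 17.6 to 23.6, 22.9 and 20.7 in Huh7, changes of 0.38 ± 0.10 (adjusted p = 0.00817) and 0.41 ± 0.11 (adjusted p = 0.0190). In Huh7 the call of ZNF226 was lost without any 1 of 4 libraries (highest adjusted p = 0.0925). ZNF146 and ZNF473 went in opposite directions. ZNF146, which has fingers but no KRAB domain, stood at 249, 229 and 226 CPM in the A549 controls and 190, 187 and 202 with P. chinensis, and at 150, 147 and 145 in the Huh7 controls and 197, 188 and 197 with P. chinensis. Its changes were -0.28 ± 0.06 in A549 (adjusted p = 0.00163) and 0.40 ± 0.07 in Huh7 (adjusted p = 0.00240). ZNF473 rose in Huh7 from 29.4, 30.4 and 30.9 to 47.0, 41.3 and 44.6 CPM (0.55 ± 0.09, adjusted p = 0.000742). Its exons overlap those of VRK3, and exons of ZNF146 overlap those of ZNF565, both on the opposite strand.

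Whether the lines differed was tested by subtracting the change in Huh7 from that in A549. With P. chinensis 5 members were above 0 and 19 below, against 10.3% and 9.3% of all 12924 genes. The difference was -0.88 ± 0.12 for ZNF473 (adjusted p = 1.23e-05), -0.63 ± 0.09 for ZNF146 (adjusted p = 3.38e-05) and -0.89 ± 0.13 for ZNF317 (adjusted p = 4.22e-05). ZNF442 was on the other side, at 0.85 ± 0.26 (adjusted p = 0.0235). ZNF671 and ZNF837 had the largest positive differences, 2.43 ± 0.78 (adjusted p = 0.0314) and 1.66 ± 0.50 (adjusted p = 0.0219), but ZNF671 was at 0, 0.492 and 0.579 CPM in the A549 controls. The calls of ZNF442, ZNF837 and ZNF671 were lost without any 1 of 6, 3 and 8 of the 24 libraries. ZNF527, ZNF573, ZNF230 and ZNF611 also differed in size by more than 1 on the log2 scale and were not called (adjusted p = 0.427, 0.306, 0.201 and 0.150), with SEs from 0.62 to 1.13. With B. chinense 2 members were above 0 and 7 below, against 5.8% and 5.8% of all genes, and the 9 were 5 without replicate 2 of B. chinense in Huh7 and 15 without replicate 2 of P. umbellatus there. With P. umbellatus 12 were above 0 and 38 below as counted, against 19.1% and 15.3%, and 5 and 21 after the correction, against 11.4% and 13.6%. For ZNF473 the difference was -0.87 with both of these extracts (± 0.12, adjusted p = 3.99e-05 and 1.87e-05), and with P. umbellatus it was -0.87 corrected (adjusted p = 4.20e-06).

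Between the control libraries of the lines the share of members that differed was close to that of all genes (163 of 230, 70.9%, against 70.7%). Their directions were 41 higher in A549 and 122 lower (17.8% and 53.0%), against 33.9% and 36.8% of all 14584 genes, with a median log2 difference (A549 against Huh7) of -0.54, against -0.06 over all genes. ZNF genes of other chromosomes had 64 higher and 87 lower of 220. The cluster at 19.7 to 24.1 Mb was lower in 30 of its 32 members, with a median of -2.53, and ZNF492, named after its values were seen, was its only member higher in A549. That at 11.5 to 12.6 Mb was lower in 22 of 25, with a median of -1.33 (-1.27 with 3 members that were at 0 in the A549 controls set at their limit). At 51.6 to 53.6 Mb and 57.2 to 58.5 Mb, 22 of 39 were lower in each, and 6 and 5 were higher. By contrast the cluster at 43.5 to 44.5 Mb had 7 of 23 higher and 1 lower, with a median of 0.18. Neighbouring members were both lower in 91 of 212 pairs, both higher in 9 and opposite in 11. With 53.0% of the members lower, many pairs would both be lower whatever their place, and how many was not counted. After the GC correction 47 were higher and 119 lower, against 37% and 36.4% of all genes.

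**Figure D5:**
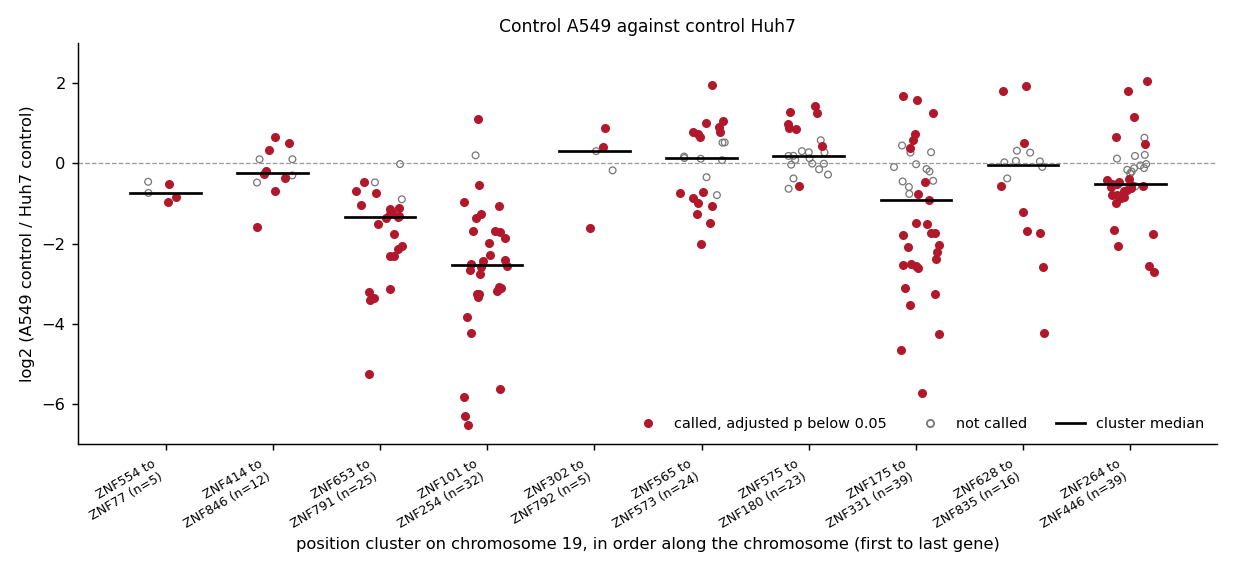
Log2 difference between control A549 and control Huh7 cells for each member (points) in the same 10 clusters along chromosome 19; red points were called and black bars are medians. The clusters from ZNF653 to ZNF791 and from ZNF101 to ZNF254 lie almost wholly below 0, with medians of -1.33 and -2.53, and that from ZNF575 to ZNF180 lies around 0 with a median of 0.18.

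Among the members with a mean of at least 50 counts ZNF91 showed the largest fitted difference, at 2.12, 1.67 and 0.866 CPM in the A549 controls and 154, 147 and 153 in the Huh7 controls when all libraries were scaled together (-6.51 ± 0.17, adjusted p = 4.78e-19). ZNF93 stood at 0.498, 0.393 and 0.193 and at 28.8, 28.9 and 28.8 CPM (-5.83 ± 0.33, adjusted p = 4.90e-13). ZNF100 stood at 0.747, 0.393 and 0.193 and at 34.6, 50.8 and 50.1 CPM (-6.28 ± 0.58, adjusted p = 2.33e-09). The counts behind the A549 values were 17, 17 and 9 for ZNF91 and 4, 4 and 2 for ZNF93, so that of the retrotransposon repressors ZNF93 was near the limit of 3 counts per library. ZNF808, which is needed for the development of the pancreas, had a summed count of 1 in the A549 controls and 617 in the Huh7 controls, a ratio of 0.00338 (exact 95% interval 8.55e-05 to 0.0189, counting error only). ZNF439, ZNF878, ZNF709 and ZNF415 had at most 2 counts in any A549 library. ZNF439 was at least 1.56-fold, ZNF878 at least 2.02-fold and ZNF709 at least 4.57-fold lower in the A549 controls, all at 0, than in the Huh7 controls, taking 3 counts per library as the limit, and ZNF415 had summed counts of 3 and 58 (ratio 0.108, exact 95% interval 0.0216 to 0.332).

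In the other direction ZNF584, ZNF114, ZNF580 and ZNF524 were the members with a mean of at least 50 counts that stood most above Huh7 in A549. ZNF584 stood at 9.46, 16.7 and 15.6 CPM in the A549 controls and 2.53, 4.10 and 3.23 in the Huh7 controls (2.04 ± 0.30, adjusted p = 2.93e-06). ZNF114 stood at 8.46, 9.13 and 9.62 and at 1.87, 1.61 and 2.77 CPM (2.03 ± 0.23, adjusted p = 5.55e-08). ZNF580 and ZNF524, neighbours in the GC-rich cluster, were higher by 1.92 ± 0.16 (adjusted p = 3.58e-10) and 1.80 ± 0.20 (adjusted p = 4.54e-08). Per kilobase of transcript ZNF146 had the highest level in the A549 controls, at 69.6 ± 3.16 CPM per kb (SD, n = 3), followed by ZNF787 at 27.0 ± 4.60 and ZNF460 at 25.2 ± 0.992, which did not differ from each other beyond their spread. In the Huh7 controls ZNF787 at 90.8 ± 8.33 and ZNF444 at 88.6 ± 3.66 were the highest and did not differ beyond their spread, followed by ZNF146 at 44.3 ± 0.775, ZNF460 at 35.9 ± 0.574 and ZNF91 at 28.0 ± 0.722.

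The proteins that KRAB zinc fingers work through, and others of heterochromatin and DNA methylation, were counted as a list of 23 genes, all of them tested in both lines: TRIM28, SETDB1, ATF7IP, CBX1, CBX3, CBX5, CHD3, CHD4, HDAC1, HDAC2, MORC2, TASOR, MPHOSPH8, PPHLN1, ATRX, DAXX, SMARCAD1, RESF1, DNMT1, DNMT3A, DNMT3B, UHRF1 and HELLS. In A549 15 of them fell and 1 rose with P. chinensis, 13 fell and 1 rose with B. chinense, and 13 fell and 1 rose with P. umbellatus, with median log2 changes of -0.30, -0.24 and -0.19. Over all genes 17.1%, 15% and 14.8% fell and 15.8%, 13.1% and 13.4% rose, in that order. With P. chinensis TRIM28, the shared corepressor, changed by -0.40 ± 0.06 (adjusted p = 0.000224), SETDB1 by -0.42 ± 0.10 (adjusted p = 0.00549) and the HP1 gene CBX5 by -0.71 ± 0.05 (adjusted p = 1.98e-07). UHRF1 and HELLS, which maintain DNA methylation through replication, changed by -1.15 ± 0.07 (adjusted p = 1.99e-08) and -1.06 ± 0.14 (adjusted p = 2.96e-05). The largest change was that of DAXX, a histone H3.3 chaperone that works with ATRX, at -3.61 ± 0.60 with P. chinensis (adjusted p = 0.000325), -2.31 ± 0.58 with B. chinense (adjusted p = 0.00816) and -2.53 ± 0.56 with P. umbellatus (adjusted p = 0.00334). These SEs were the largest of the list in A549. In the A549 controls DAXX was already lower than in the Huh7 controls (-3.02 ± 0.30, adjusted p = 6.58e-09). Shared sequence was measured only for the members, so whether the counts of DAXX are affected by it was not tested. In Huh7 DAXX was not called with any extract as counted, and after the GC correction it was called higher with P. chinensis (0.55, adjusted p = 0.0377) and P. umbellatus (0.77, adjusted p = 0.0154). RESF1, a partner of SETDB1 in silencing of retroviral elements, was the gene that rose, by 0.72 ± 0.07 (adjusted p = 3.37e-06).

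In Huh7 6 of the 23 fell and 1 rose with P. chinensis (median -0.09), and 9 fell and 2 rose after the GC correction, against 10.5% of all genes lower and 10.5% higher as counted and 18% and 14.3% corrected. By edgeR 0 were called with B. chinense, against 0.757% lower and 0.519% higher (1 lower by DESeq2, median -0.06). At an unadjusted p below 0.05, 1 was higher and 4 lower, against 838 and 871 of all 13875 genes. With P. umbellatus 5 fell and 4 rose as counted (median 0.01), against 17.8% and 19.3% of all genes, and 8 fell and 2 rose corrected, against 9.22% and 10.2%. SETDB1 changed by -0.46 ± 0.07 with P. chinensis (adjusted p = 0.000754), CBX5 by -0.63 ± 0.07 (adjusted p = 6.33e-05), HELLS by -0.80 ± 0.09 (adjusted p = 8.06e-05) and RESF1 by 0.77 ± 0.11 (adjusted p = 0.000430). TRIM28 changed by -0.25 ± 0.18 with P. chinensis as counted (adjusted p = 0.393) and by -0.16 after the GC correction (adjusted p = 0.0245). With P. umbellatus TRIM28 changed by -0.73 ± 0.19 as counted (adjusted p = 0.0107) and by 0.04 after the GC correction (adjusted p = 0.617).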

How the data were processed

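Stranded total RNA depleted of ribosomal RNA was sequenced from 24 libraries in 8 groups of 3. Per the paper's methods the authors checked reads with FastQC, quantified them with kallisto against the Ensembl transcripts of GRCh38.p13 and dropped genes that were not protein-coding or averaged 5 counts or fewer. The deposited values are estimated counts per gene, given as whole numbers. Total counts per library (6803648 to 24345364) set the precision of low members, and intervals and limits from counts cover counting error only.

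Groups came from the sample labels. Each line was fitted alone over its 12 libraries, with genes above a mean of 5 counts, by edgeR 4.0.16 (TMM scaling, quasi-likelihood F test, prior count 2, Benjamini-Hochberg adjusted over all genes tested, threshold 0.05) in R 4.3.3. Differences between lines and the control lines used a fit of all 24 libraries. SE is the size of the log2 change divided by the square root of F. CPM values are TMM-scaled. For the GC and length correction, each library's log2 ratio to the mean was fitted on splines (5 df) of GC content and length, and the fit was used as an offset. Both values were taken from canonical transcripts of GENCODE (GRCh38). Words of 31 bases from all transcripts of each member were compared with those of other genes, leaving out long non-coding and small RNA genes. The steps were tested on simulated data. Members and gene lists were chosen with earlier results of these data known.

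Members named were the largest changes per extract and line without overlap of groups and with a mean of at least 50 counts, those called with all extracts in A549 or in both lines, the largest differences between lines, those at or below 3 counts throughout a line, and the highest per length in each cluster. Any other member is said to be named after its values were seen or for its role. Alternatives were RLE size factors, DESeq2 1.42.0, other count filters, a replicate block, the correction, fewer libraries, other cluster gaps and leaving out each library. Replicate numbers are shared between groups. Over all genes, deviations from the group mean in same-numbered libraries of different groups had a correlation below 0.1 in all 18 pairs of each line. A weak effect shared by same-numbered libraries could be missed this way. 16 other zinc finger genes of the chromosome with other symbols were not counted.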

Additional observations from a re-analysis of the deposited data

Results flagged for a closer look

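Members whose change differed between A549 and Huh7 by the test of the difference itself are given here. There were 24 such members for P. chinensis and 9 for B. chinense. These were 11.3% and 4.2% of the members tested, below the 19.6% and 11.6% of all genes. P. umbellatus had 50 (23.6%, against 34.4% of all genes), a count that rests on the Huh7 libraries with a GC trend. After the correction it was 26 (12.3%, against 25.0% of all genes). With P. chinensis the change in A549 minus that in Huh7 was 2.43 for ZNF671, 1.66 for ZNF837 and 0.85 for ZNF442, and it was -0.89 for ZNF317, -0.63 for ZNF146 and -0.88 for ZNF473. ZNF473 was also lower in A549 than in Huh7 by this measure with B. chinense (-0.87) and P. umbellatus (-0.87). ZNF671 had at most 6 counts in any A549 control library, and its call was lost without any 1 of 8 libraries.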

How the results depend on the processing

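No change of a single member named in the text turned its direction under any alternative run. DESeq2 gave 5 members lower with P. chinensis and 16 higher with B. chinense in Huh7, and 3 and 26 members that differed between P. chinensis and the other extracts in A549 and Huh7. The GC and length correction gave 11 lower with P. chinensis in A549, and in Huh7 7 lower with P. chinensis, 16 higher and 2 lower with B. chinense, 44 higher and 6 lower with P. umbellatus, 37 that differed between P. chinensis and the other extracts, and 26 that differed between lines with P. umbellatus. A mean above 50 counts gave 12 higher with B. chinense in A549. Fits of the 6 libraries compared gave, in Huh7, 11 lower with P. chinensis, 18 higher and 3 lower with B. chinense, and 32 higher and 8 lower with P. umbellatus. Fits of 9 Huh7 libraries without P. umbellatus, chosen after seeing the data, gave 10 lower with P. chinensis and 27 higher and 4 lower with B. chinense. P. chinensis against B. chinense alone gave 10 members, and 25 corrected. For DESeq2, for fits of fewer libraries and for P. chinensis against B. chinense alone, shares over all genes are not given. The causes of these shifts were not tested. RLE size factors and no filter on low counts moved none of the counts by more than 1.5 times.

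Because no pairing by replicate number was seen, the replicate block is given only here. With the block 17 members were higher and 7 lower with P. chinensis in A549, 78 and 2 in Huh7, and 96 and 17 with P. umbellatus in Huh7, while B. chinense in Huh7 had 1 higher and P. chinensis against the other extracts in A549 had 1. With the block and the correction together, P. chinensis in Huh7 had 6 lower, B. chinense 14 higher and 2 lower, and P. umbellatus 37 higher and 6 lower, the difference between lines with P. umbellatus 23, and P. chinensis against the other extracts 34 in Huh7 and 1 in A549.

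Leaving out each library in turn gave, for members higher and lower, 10 to 20 and 5 to 8 with P. chinensis in A549, 5 to 9 and 4 to 7 with B. chinense, 5 to 10 and 4 to 7 with P. umbellatus, and in Huh7 51 to 101 and 1 to 9, 0 to 17 and 0 to 2, and 69 to 109 and 11 to 20. The difference between lines was called in 16 to 33 members with P. chinensis, 5 to 15 with B. chinense and 41 to 73 with P. umbellatus, and P. chinensis against the other extracts in 0 to 2 in A549 and 7 to 33 in Huh7. Between the control lines 35 to 49 were higher and 116 to 124 lower. With a library left out, a group of 2 is assumed to vary like the others.

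Of 1937 alternative values for 86 changes of single members, 1768 stayed on their side of the threshold, 159 lost a call and 10 gained one, and 51 of the 86 never changed. Without 1 library, 30 changed.

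In A549 18 members were too low to test, and a call that was missed does not show that a level stayed the same. Dose, time and separate cultures are not given in the sources used here, and reads of near-identical members may be assigned to the wrong copy.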
